A study of Mus musculus with 16 samples.

Results

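The genes described here are 5 Notch target genes, namely Hes1, Hey1, Hey2, Heyl and Nrarp, and 4 nuclear cofactors of Notch signaling, namely Rbpj, Maml1, Maml2 and Maml3. They were chosen by symbol, each symbol matched 1 gene, and together they make 9 of the 55414 gene identifiers counted. RNA-Seq was performed on cultured chondrocyte-enriched cells taken from the ends (epiphyses) of limb bones of newborn mice. The cells were from heterozygous Notch2tm1.1Ecan mice or from control littermates, all in a C57BL/6 background, with male and female mice pooled. The Notch2tm1.1Ecan allele is present in all tissues rather than driven by a Cre recombinase, and it carries a premature stop codon, so that the NOTCH2 protein it encodes lacks the PEST domain needed for its degradation. Cells of each genotype were treated with vehicle, which was phosphate-buffered saline, or with TNFα (tumor necrosis factor α, an inflammatory cytokine) at 50 ng/ml, in both cases for 6 h, and each of the 4 groups had 4 libraries described as biological replicates. The labels state that serum was withdrawn from the TNFα groups, whereas the study's methods describe serum-free medium for both treatments, so TNFα and serum withdrawal cannot be told apart with certainty.

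When a NOTCH receptor binds its ligand, proteolytic cleavage releases the Notch intracellular domain (NICD), which moves to the nucleus and binds the DNA-binding protein RBPJ together with a Mastermind-like protein (MAML). This complex activates transcription of Hes1, Hey1, Hey2 and Heyl, which encode basic helix-loop-helix repressors, and of Nrarp, which encodes an ankyrin-repeat protein that feeds back to limit the Notch complex. In the absence of NICD, RBPJ sits in complexes with corepressors. Notch activation is known to restrain chondrocyte differentiation in growth plate cartilage.

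The members are spread over the genome (coordinates of GRCm39, GENCODE M39). Hes1 (ENSMUSG00000022528) lies at chr16:29882134-29886643 on the plus strand, and Hey1 (ENSMUSG00000040289) at chr3:8726956-8732385 on the minus strand. Hey2 (ENSMUSG00000019789) lies at chr10:30708350-30718828 on the minus strand, Heyl (ENSMUSG00000032744) at chr4:123127349-123143682 on the plus strand and Nrarp (ENSMUSG00000078202) at chr2:25070770-25073351 on the plus strand. Rbpj (ENSMUSG00000039191) lies at chr5:53623494-53814704 on the plus strand, Maml1 (ENSMUSG00000050567) at chr11:50146461-50183190 on the minus strand, Maml2 (ENSMUSG00000031925) at chr9:13298302-13620684 on the plus strand and Maml3 (ENSMUSG00000061143) at chr3:51593328-52012497 on the minus strand.

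Promoter windows of RefSeq (GRCm38.p6), running from 250 bases before to 50 bases after a gene's start, were held for 6 members in 8 windows. These were Hey2, Nrarp, Rbpj, Maml1, Maml2 and Maml3, and none was held for Hes1, Hey1 and Heyl. The windows were searched on both strands for GTGGGAA, the core bound by RBPJ, and for CACGTG and CACNAG, the E-box and the N-box bound by HES and HEY repressors. The windows of Hey2 and Nrarp are shown because those target genes had the fewest counts and carried most of these letters. Capitals mark GTGGGAA or its reverse complement in Hey2 (chr10:30842734-30843033, minus strand), and CACGTG or CACNAG on either strand in Nrarp (chr2:25180508-25180807, plus strand).
Hey2: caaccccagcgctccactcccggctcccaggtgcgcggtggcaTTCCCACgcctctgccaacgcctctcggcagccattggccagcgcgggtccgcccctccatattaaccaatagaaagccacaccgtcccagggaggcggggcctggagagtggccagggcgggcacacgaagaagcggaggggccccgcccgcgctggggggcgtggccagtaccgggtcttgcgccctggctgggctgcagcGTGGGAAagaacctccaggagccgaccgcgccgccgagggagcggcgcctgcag
Nrarp: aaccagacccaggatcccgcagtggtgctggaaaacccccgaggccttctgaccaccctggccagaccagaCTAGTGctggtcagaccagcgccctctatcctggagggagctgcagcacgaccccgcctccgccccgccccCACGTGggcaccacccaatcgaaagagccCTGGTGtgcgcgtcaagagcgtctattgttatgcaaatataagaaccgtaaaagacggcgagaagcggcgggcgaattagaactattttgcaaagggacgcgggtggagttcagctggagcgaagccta
The letters GTGGGAA began at positions -207 and -4 from the start of Hey2 and in no window of the other 5 members. They were present in 6.38% of all 32851 windows. Nrarp held CACNAG at -179 and -79, letters present in 42.5% of all windows, and CACGTG at -108, present in 7.15%. Of the other members' windows, 1 window of Maml2 held CACNAG at -193. These are matches of letters, and no binding was measured.

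The libraries held 3439726 to 44237300 counts on genes, and the shallowest was replicate 4 of the Notch2tm1.1Ecan TNFα group. Values are given in CPM, which scales the counts of each library to the same total, after TMM normalization, an edgeR correction for library composition, and fold changes and p-values are from the quasi-likelihood test of edgeR, with p-values adjusted by the Benjamini-Hochberg method over all genes tested and a gene called at an adjusted p under 0.05. Col2a1, the main cartilage collagen, measured 13472 to 39309 CPM, and all 10 chondrocyte markers examined were detected. Control replicate 4 stood apart in both treatments. With vehicle, its Icam1, an adhesion molecule induced by TNFα, was 439 CPM against 34.4 to 40.4 CPM in the other 3 control vehicle libraries. On the first principal component, which held 86.3% of the variance, it lay at 11.4 against 41.4 to 43.2 for the other vehicle libraries. The TNFα-treated control replicate 4 lay at -29.7 against -41.0 to -38.3 for the other TNFα libraries. Several results of the members are given with and without these libraries. The marker lists and the pairwise shares over all genes are given with them only. Notch2 itself, counted from both alleles together, was 129.9 ± 19.7 CPM in control and 151.8 ± 13.5 CPM in Notch2tm1.1Ecan vehicle cells (SD, n = 4), and 155.7 ± 28.0 and 222.6 ± 15.1 CPM with TNFα. Since total Notch2 counts do not separate the alleles, they do not check the genotype labels.

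**Figure D1:**
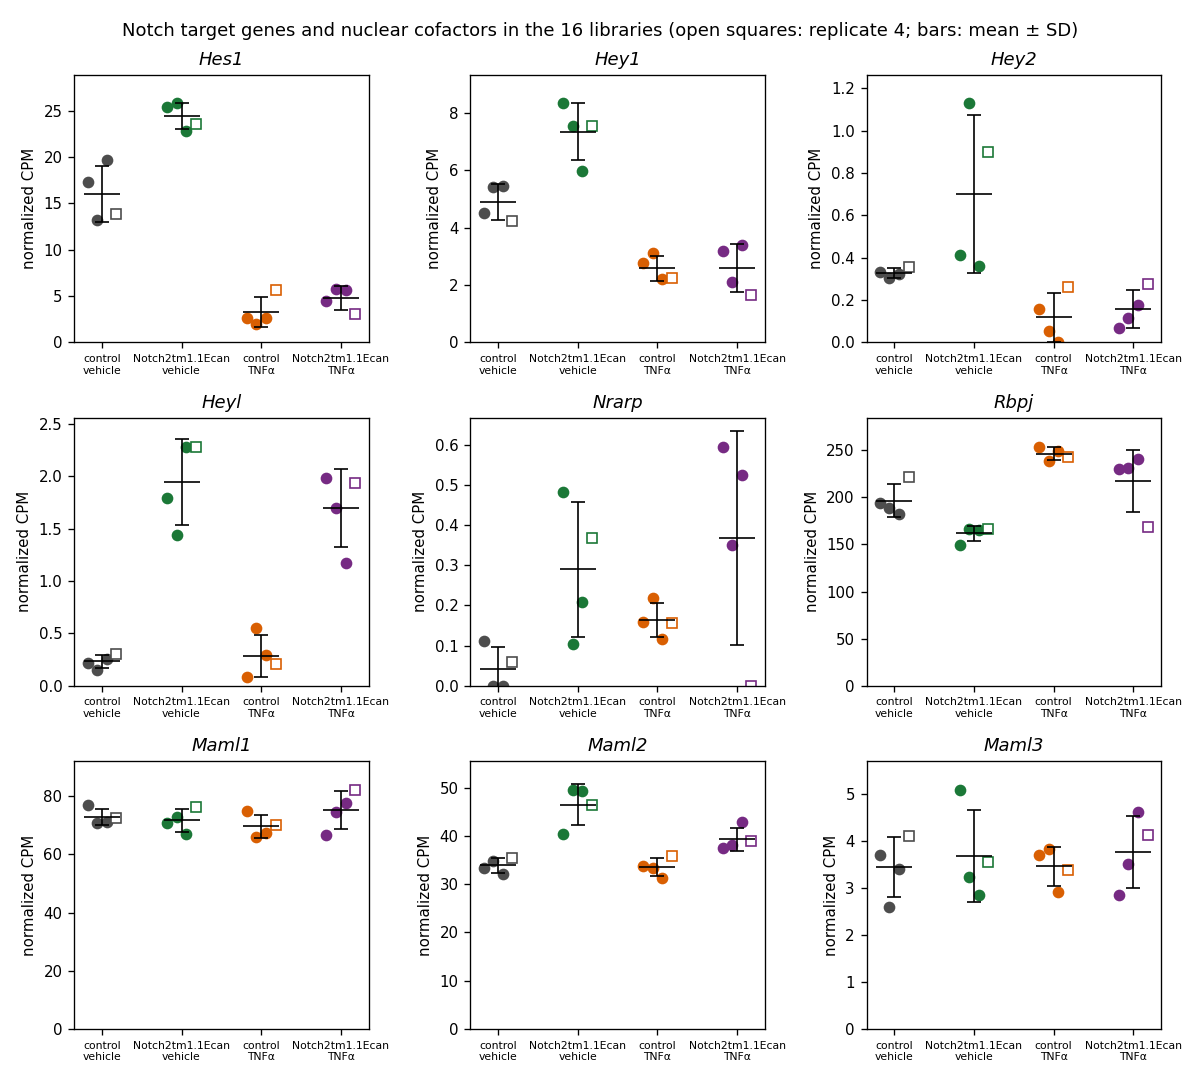
Normalized CPM (linear axes from 0) of the 9 members in the 4 groups, 1 point per library, with the mean and SD in black and replicate 4 as open squares. Heyl was 1.44 to 2.28 CPM in the Notch2tm1.1Ecan vehicle libraries and 0.152 to 0.298 CPM in the control vehicle libraries, and Hes1 was lower in every TNFα library than in every vehicle library.

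The effect of the allele was examined first in cells treated with vehicle. All 9 members passed the count filter in this comparison. Hes1, Hey1, Heyl and Maml2 were higher and Rbpj was lower in Notch2tm1.1Ecan cells, so that 5 of 9 members were called, whereas 10.5% of all 19432 genes tested were called. Of all genes tested, 6.19% were called higher and 4.35% lower. The median log2 fold change was 1.13 over the 5 target genes and 0.03 over the 4 cofactors, beside -0.0020 over all genes tested. The target gene median was the value of Hey2, which had few counts and was not called.

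Heyl had the largest difference among the members. It measured 0.221, 0.152, 0.257 and 0.298 CPM in control replicates 1 to 4 and 1.79, 1.44, 2.28 and 2.28 CPM in Notch2tm1.1Ecan replicates 1 to 4, from 15 counts in all in the control and 197 in the Notch2tm1.1Ecan libraries. Every Notch2tm1.1Ecan library was above every control library. Heyl was 8.21-fold higher (95% interval 5.11 to 13.2, adjusted p = 6.25e-07).

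Hes1, the most abundant target gene, measured 17.2, 13.2, 19.7 and 13.9 CPM in control and 25.3, 25.8, 22.8 and 23.6 CPM in Notch2tm1.1Ecan libraries. The groups did not overlap, although the gap between control replicate 3 and Notch2tm1.1Ecan replicate 3 was small. Hes1 was 1.53-fold higher (95% interval 1.31 to 1.78, adjusted p = 0.000405). Hey1 measured 4.53, 5.41, 5.47 and 4.23 CPM in control and 8.33, 7.54, 5.96 and 7.55 CPM in Notch2tm1.1Ecan libraries. The lowest Notch2tm1.1Ecan library was replicate 3, and it too was above all control libraries. The difference for Hey1 was 1.51-fold (95% interval 1.23 to 1.85, adjusted p = 0.00727). Leaving out any 1 of the 8 libraries, control replicate 4 included, gave log2 fold changes of 0.53 to 0.72 for Hes1 and 0.52 to 0.67 for Hey1, and both remained called.

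Hey2 and Nrarp rested on few reads. Hey2 had 6, 4, 5 and 6 counts in control and 6, 22, 7 and 39 counts in Notch2tm1.1Ecan libraries, or 0.332, 0.305, 0.322 and 0.357 CPM against 0.413, 1.13, 0.363 and 0.897 CPM. Notch2tm1.1Ecan replicates 2 and 4 were high, while replicates 1 and 3 were barely above the control. The fitted log2 fold change of Hey2 was 1.13 (95% interval 0.23 to 2.03, adjusted p = 0.111) and was not called. Nrarp had 2, 0, 0 and 1 counts in control and 7, 2, 4 and 16 counts in Notch2tm1.1Ecan libraries. The lowest Notch2tm1.1Ecan library, at 0.103 CPM, overlapped the highest control library, at 0.111 CPM. From the 3 and 29 counts pooled by group and scaled by library size, the ratio was 6.35 (95% interval 1.97 to 32.6, counting error only), and Nrarp was not called (adjusted p = 0.0694). It was called at an adjusted p of 0.04999 without Notch2tm1.1Ecan replicate 2 and of 0.0449 in the fit to all 16 libraries. Nrarp shares 2051 exon bases with Gm38287, a long noncoding RNA on the opposite strand, and 182 with Gm13387, and because the strand setting of the counting was not given, its counts are uncertain. Hey1 shares 271 exon bases with Gm64520 and Hes1 75 with Gm60905, both long noncoding RNAs on the opposite strand. The unknown strand setting bears on Hey1 and Hes1 too.

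Among the cofactors, Rbpj measured 194, 188, 183 and 222 CPM in control and 149, 166, 166 and 166 CPM in Notch2tm1.1Ecan libraries. The highest control value was that of replicate 4, the library that stood apart, and the groups did not overlap with or without it. The log2 fold change of Rbpj was -0.27 (95% interval -0.40 to -0.15, adjusted p = 0.00261), and it was -0.31 to -0.22 when 1 library at a time was left out. Rbpj has like-named pseudogenes, of which Rbpj-ps3 took 280 counts over the 16 libraries, against 610 to 7227 counts per library for Rbpj itself.

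Maml2 measured 33.3, 34.8, 32.0 and 35.3 CPM in control and 40.4, 49.5, 49.3 and 46.4 CPM in Notch2tm1.1Ecan libraries. All 4 Notch2tm1.1Ecan libraries were above the control range, and Maml2 was 1.38-fold higher (95% interval 1.25 to 1.52, adjusted p = 4.95e-05). Its paralogs, which encode the other Mastermind-like coactivators, differed by less than the spread between replicates. Maml1 was 70.8 to 77.1 CPM in control and 67.0 to 76.5 CPM in Notch2tm1.1Ecan libraries, a log2 fold change of -0.01 (95% interval -0.13 to 0.10), and 135 of its exon bases are shared with Gm26542 on the opposite strand. Maml3 was 2.59 to 4.11 CPM against 2.85 to 5.10 CPM, a log2 fold change of 0.08 (95% interval -0.33 to 0.49).

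Markers of several cell types moved with genotype. In bulk RNA a change in the number of cells of a type and a change in RNA per cell cannot be told apart. The 10 chondrocyte markers summed to 50608 to 54419 CPM in control and 31628 to 36773 CPM in Notch2tm1.1Ecan vehicle libraries, and all 10 were called lower. Of the 6 endothelial markers, 4 were called higher and their sum was 6.85 to 9.11 CPM in control and 15.98 to 20.6 CPM in Notch2tm1.1Ecan libraries. The sum of the 8 smooth muscle and pericyte markers was 2570 to 2836 CPM in control and 4433 to 5053 CPM in Notch2tm1.1Ecan libraries, with 6 called higher. Of the pericyte markers, Pdgfrb was called higher (log2 fold change 0.38), while Rgs5 and Cspg4 went the other way and were not called (-0.25 and -0.19). The 8 macrophage markers summed to 26.2 to 29.7 CPM and 51.8 to 59.6 CPM, with 5 called higher. Among them Cd14 went the other way and was not called (log2 fold change -0.32). The sums of the 7 skeletal muscle markers were 20.3 to 24.8 CPM and 32.2 to 39.02 CPM, with 3 called higher, while Pax7 and Myf5 had 3 counts or fewer in every library. No marker of the endothelial, smooth muscle or macrophage lists was at that floor in all libraries of a group. The 6 fibroblast markers summed to 20205 to 22157 CPM and 23893 to 25754 CPM, with 3 called higher and 2 lower. The 6 proliferation markers, among them Top2a, summed to 822 to 932 CPM and 959.8 to 1129 CPM, with 4 called higher. The part of these markers in the differences of Heyl, Hes1, Hey1, Maml2 and Rbpj was not tested.

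**Figure D2:**
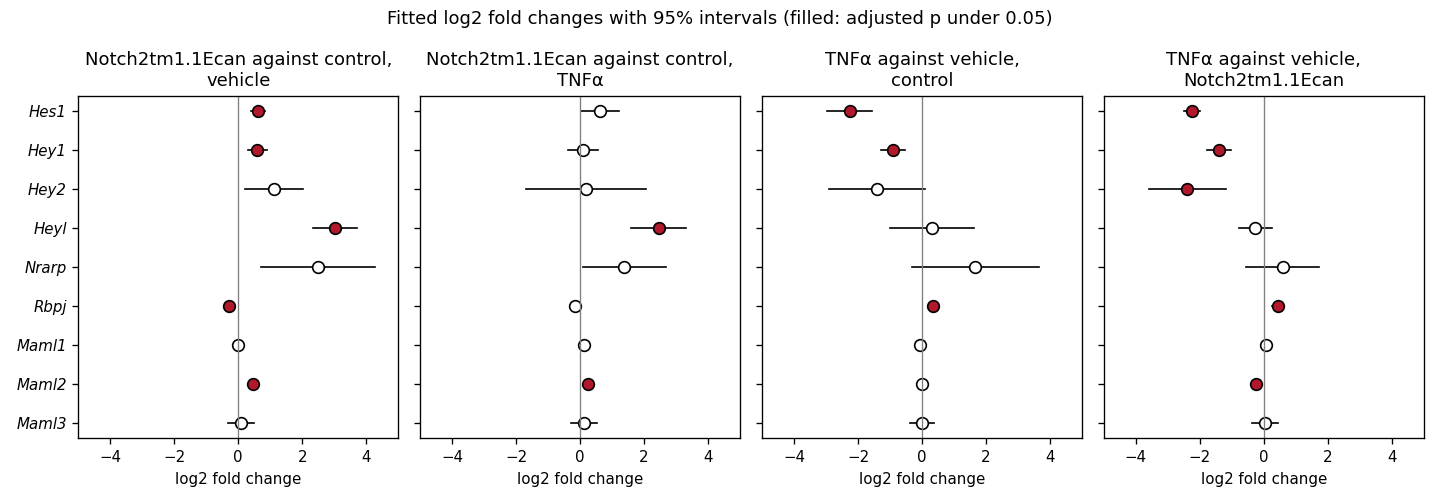
Log2 fold changes (horizontal axis) of the 9 members with their 95% intervals in the 4 pairwise comparisons, filled where the adjusted p was under 0.05. Heyl was 3.04 and 2.46 in the genotype comparisons with vehicle and TNFα, and Hes1 was -2.26 and -2.24 with TNFα in control and Notch2tm1.1Ecan cells.

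The same genotype comparison was made in the presence of TNFα. Heyl and Maml2 were higher in Notch2tm1.1Ecan cells, and the other members were not called, which makes 2 of 9. The share called over all 19227 genes tested was 9.94%, with 5.63% higher and 4.31% lower, and the call of Maml2 depended on single libraries. The median log2 fold change was 0.62 over the 5 target genes and 0.11 over the 4 cofactors, beside -0.01 over all genes. The target gene median was the value of Hes1, which was not called.

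Heyl measured 0.0788, 0.549, 0.291 and 0.209 CPM in control and 1.99, 1.70, 1.17 and 1.93 CPM in Notch2tm1.1Ecan libraries with TNFα. There was no overlap, although control replicate 1 rested on 1 count and Notch2tm1.1Ecan replicate 4 on 7 counts. The difference was 5.50-fold (95% interval 3.02 to 10.0, adjusted p = 0.000144). Heyl was the only member called in both genotype comparisons under every alternative tried.

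Hes1 measured 2.68, 2.03, 2.68 and 5.64 CPM in control and 4.501, 5.79, 5.67 and 3.03 CPM in Notch2tm1.1Ecan libraries with TNFα. The high control library was replicate 4 and the low Notch2tm1.1Ecan library was the shallowest one, with 11 counts, so the groups overlapped. The log2 fold change was 0.62 (95% interval 0.03 to 1.21, adjusted p = 0.211), and without control replicate 4 it was 1.04 and was called (adjusted p = 0.000970). It was also called when genes with at least 1 count were kept (adjusted p = 0.0176). Over all alternatives the adjusted p of Hes1 ran from 0.000970 to 0.407.

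Hey1 measured 2.76, 3.13, 2.21 and 2.25 CPM in control and 3.18, 2.105, 3.39 and 1.66 CPM in Notch2tm1.1Ecan libraries with TNFα. The groups overlapped widely, with a log2 fold change of 0.10 (95% interval -0.37 to 0.57). Hey2 had 2, 1, 0 and 5 counts in control and 1, 2, 3 and 1 counts in Notch2tm1.1Ecan libraries, so no difference was detectable at this depth. Nrarp had 2, 4, 2 and 3 counts in control and 9, 6, 9 and 0 counts in Notch2tm1.1Ecan libraries, the last being the shallowest library. Pooled by group, the ratio of Nrarp was 2.77 (95% interval 1.31 to 6.26, counting error only), and it was not called (adjusted p = 0.198).

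Maml2 measured 33.8, 33.3, 31.2 and 35.7 CPM in control and 37.5, 38.1, 42.8 and 38.9 CPM in Notch2tm1.1Ecan libraries with TNFα. All Notch2tm1.1Ecan libraries were above all control libraries, and the difference was 1.18-fold (95% interval 1.06 to 1.31, adjusted p = 0.0350). The call was lost without control replicate 1, 2 or 3 or without Notch2tm1.1Ecan replicate 2 or 3, with log2 fold changes of 0.19 to 0.27 over all 8 such fits. Rbpj measured 254, 239, 249.6 and 243 CPM in control and 231, 231, 240.3 and 168 CPM in Notch2tm1.1Ecan libraries. Only the shallowest library lay far below the control range, and Rbpj was not called (log2 fold change -0.15, 95% interval -0.31 to -0.0009, adjusted p = 0.230). Maml1 and Maml3 had log2 fold changes of 0.11 (95% interval -0.03 to 0.26) and 0.11 (95% interval -0.29 to 0.52). With TNFα too, all 10 chondrocyte markers were called lower in Notch2tm1.1Ecan cells, with sums of 36469 to 43391 CPM in control and 19877 to 22645 CPM in Notch2tm1.1Ecan libraries. The endothelial sums were 9.15 to 12.1 CPM and 17.7 to 24.0 CPM, and those of smooth muscle and pericyte markers 1573 to 1881 CPM and 2621 to 2842 CPM, with 3 of 6 and 4 of 8 called higher. Pdgfrb was again called higher (log2 fold change 0.53), while Rgs5 and Cspg4 again went the other way and were not called (-0.39 and -0.18). The macrophage sums were 35.6 to 38.8 CPM and 78.9 to 87.4 CPM, with 6 of 8 called higher. Of the skeletal muscle markers 1 of 5 tested, of the fibroblast markers 4 of 6 and of the proliferation markers 1 of 6 were called higher, and 1 fibroblast marker was called lower. The part of these markers in the values of Heyl and Maml2 was not tested.

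The response to TNFα was examined next, first in control cells. Hes1 and Hey1 fell and Rbpj rose, so that 3 of 9 members were called, beside 44.2% of all 19338 genes tested. With so few members, this share was not read as different from that of all genes. The percentage called higher was 23.3 and lower 20.9 over all genes. The median log2 fold change was -0.91 over the target genes and -0.01 over the cofactors, beside 0.04 over all genes.

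Hes1 went from 17.2, 13.2, 19.7 and 13.9 CPM with vehicle to 2.68, 2.03, 2.68 and 5.64 CPM with TNFα. The least reduced library was the TNFα-treated replicate 4, and it was still below every vehicle library. The fall was 4.80-fold (log2 fold change -2.26, 95% interval -2.97 to -1.56, adjusted p = 0.000498). Without both control libraries numbered 4, the log2 fold change was -2.77 (adjusted p = 5.98e-14).

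Hey1 went from 4.23 to 5.47 CPM with vehicle to 2.21 to 3.13 CPM with TNFα, without overlap. The fall was 1.88-fold (95% interval of the log2 fold change -1.28 to -0.54, adjusted p = 0.00022), and the log2 fold change was -0.91 with and without the libraries numbered 4. Hey2 went from 4 to 6 counts per library to 0 to 5 counts. Every TNFα library was below every vehicle library in CPM, and the log2 fold change of -1.41 was not called (95% interval -2.91 to 0.09, adjusted p = 0.125). Without the TNFα-treated control replicate 4, Hey2 was called at a log2 fold change of -2.25 (adjusted p = 0.0410), and the adjusted p was 0.0562 without both libraries numbered 4.

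Heyl was 0.152 to 0.298 CPM with vehicle and 0.0788 to 0.549 CPM with TNFα in control cells, and the wide 95% interval of its log2 fold change, -0.99 to 1.62, reflected 15 and 20 counts in all. Nrarp had 2, 0, 0 and 1 counts with vehicle and 2, 4, 2 and 3 with TNFα, so that the groups did not overlap in CPM but most libraries were at 3 counts or fewer. The pooled ratio was 3.47 (95% interval 0.916 to 19.4, counting error only).

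Rbpj rose from 194, 188, 183 and 222 CPM to 254, 239, 249.6 and 243 CPM. The vehicle value nearest to the TNFα group was that of replicate 4. The rise was 1.26-fold (95% interval 1.16 to 1.37, adjusted p = 7.14e-05), and the log2 fold change of 0.33 became 0.40 without both libraries numbered 4. The MAML genes did not move beyond the spread between replicates in control cells. Their log2 fold changes were -0.06 for Maml1 (95% interval -0.17 to 0.05), -0.01 for Maml2 (95% interval -0.15 to 0.13) and -0.0036 for Maml3 (95% interval -0.38 to 0.38). In control cells TNFα also moved the marker lists. Of the 10 chondrocyte markers 9 were called lower, of the 8 smooth muscle and pericyte markers 6 were called lower and 1 higher, and of the 6 proliferation markers 4 were called lower. The fibroblast list had 4 of 6 called higher and 1 lower, the macrophage list 2 of 8 higher and the endothelial list 1 of 6 higher. Of the skeletal muscle markers 3 of 5 tested were called lower. Of 8 genes known to be induced by TNFα, 7 were called higher, in a fit that included the control vehicle replicate 4 with its raised Icam1. The part of these shifts in the values of Hes1, Hey1 and Rbpj was not tested.

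In Notch2tm1.1Ecan cells, Hes1, Hey1, Hey2 and Maml2 fell with TNFα and Rbpj rose, so that 5 of 9 members were called. The share over all 19633 genes tested was 44.5%, with 22.6% higher and 21.9% lower, so that the share of members called was near that of all genes. Over the target genes the median log2 fold change was -1.40, and over the cofactors it was 0.05, beside 0.03 over all genes.

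Hes1 went from 25.3, 25.8, 22.8 and 23.6 CPM with vehicle to 4.501, 5.79, 5.67 and 3.03 CPM with TNFα. The groups were far apart, and the fall was 4.73-fold (log2 fold change -2.24, 95% interval -2.49 to -1.998, adjusted p = 6.3e-15). Hey1 went from 8.33, 7.54, 5.96 and 7.55 CPM to 3.18, 2.105, 3.39 and 1.66 CPM. No library of the TNFα group reached the lowest vehicle library, and the fall was 2.64-fold (log2 fold change -1.40, 95% interval -1.77 to -1.03, adjusted p = 2.25e-07). Hey2 had 6, 22, 7 and 39 counts with vehicle and 1, 2, 3 and 1 counts with TNFα. Its pooled counts were 5.78-fold lower (95% interval 2.67 to 14.9, counting error only), and it was called (adjusted p = 0.00126).

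Heyl measured 1.79, 1.44, 2.28 and 2.28 CPM with vehicle and 1.99, 1.70, 1.17 and 1.93 CPM with TNFα in Notch2tm1.1Ecan cells. The groups overlapped, with a log2 fold change of -0.27 (95% interval -0.79 to 0.25, adjusted p = 0.425). Nrarp had 7, 2, 4 and 16 counts and 9, 6, 9 and 0 counts, a pooled ratio of TNFα over vehicle of 1.51 (95% interval 0.843 to 2.69, counting error only). Neither gene was called. The fitted 95% interval of the Nrarp ratio, which takes in the spread between libraries, was 0.683 to 3.30 and allowed a rise or a fall.

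Rbpj rose from 149, 166, 166 and 166 CPM to 231, 231, 240.3 and 168 CPM. The shallowest library, at 168 CPM, was the only TNFα library close to the vehicle range. The rise was 1.36-fold (95% interval 1.20 to 1.54, adjusted p = 0.000347), with log2 fold changes of 0.39 to 0.53 when 1 library at a time was left out. Maml2 went from 40.4, 49.5, 49.3 and 46.4 CPM to 37.5, 38.1, 42.8 and 38.9 CPM. The groups overlapped through Notch2tm1.1Ecan vehicle replicate 1, and the log2 fold change was -0.24 (95% interval -0.40 to -0.08, adjusted p = 0.0137). Its call was lost, with adjusted p-values up to 0.0576, when vehicle replicate 2, TNFα replicate 1 or TNFα replicate 2 was left out. The log2 fold changes of Maml1 and Maml3 were 0.06 (95% interval -0.09 to 0.20) and 0.04 (95% interval -0.38 to 0.45). Of the chondrocyte markers 9 of 10, of the smooth muscle and pericyte markers 6 of 8 and of the proliferation markers 5 of 6 were called lower with TNFα in Notch2tm1.1Ecan cells. The skeletal muscle list had 2 of 5 tested called lower. Of the macrophage markers 6 of 8, of the fibroblast markers 3 of 6 and of the smooth muscle and pericyte markers 1 of 8 were called higher. All 8 genes known to be induced by TNFα were called higher, and the part of these shifts in the members' values was not tested. The 2 TNFα comparisons used different libraries from each other, but each shared its libraries with the genotype comparisons above.

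**Figure D3:**
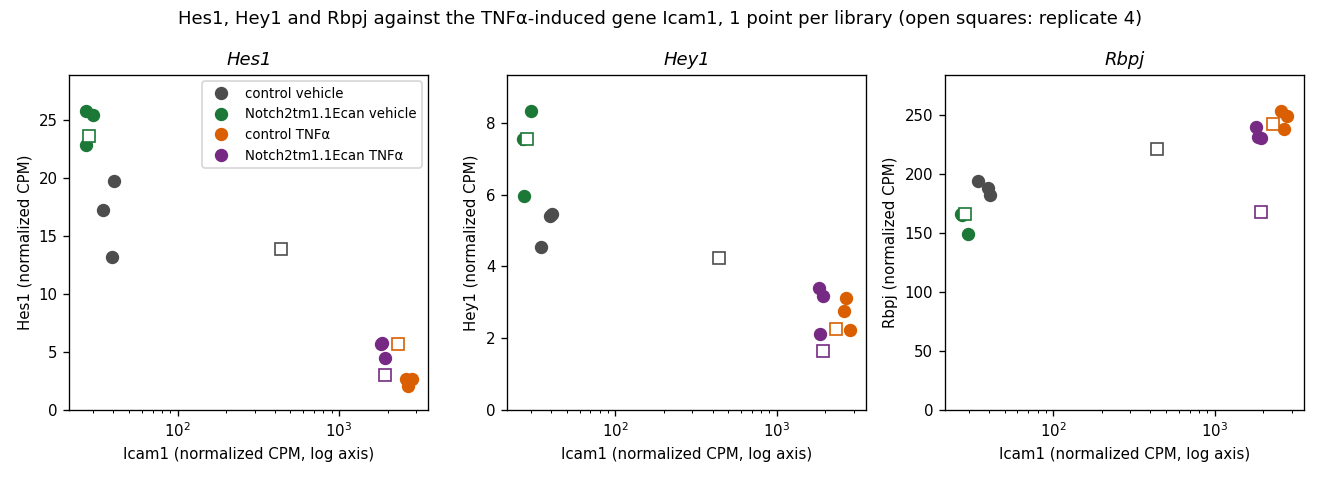
Normalized CPM of Hes1, Hey1 and Rbpj (linear axes from 0) against that of Icam1 (log axis), 1 point per library, with replicate 4 as open squares. The control vehicle replicate 4 lies at 439 CPM of Icam1, between the other vehicle libraries at 26.9 to 40.4 CPM and the TNFα libraries at 1812 to 2827 CPM, and its Hes1, at 13.9 CPM, is within the range of the other control vehicle libraries.

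Whether TNFα acted differently in cells of the 2 genotypes was tested as an interaction over all 16 libraries. None of the 9 members was called by edgeR or by DESeq2, and 1 had an unadjusted p under 0.05 in edgeR, which was Maml2 (log2 difference of the TNFα responses -0.22, 95% interval -0.43 to -0.02, unadjusted p = 0.0353 and adjusted p = 0.518 by edgeR). Over all 21321 genes tested, 0.474% were called. For Hes1 the TNFα responses of the 2 genotypes differed by 0.02 on the log2 scale (95% interval -0.67 to 0.72), and by 0.54 without both control libraries numbered 4 (adjusted p = 0.434). For Hey1 the difference was -0.48 (95% interval -1.01 to 0.04, adjusted p = 0.637). For Rbpj it was 0.11 (95% interval -0.12 to 0.34) and for Heyl -0.58 (95% interval -1.80 to 0.64). The intervals of Hey2, -2.96 to 1.03, and Nrarp, -3.22 to 1.04, were too wide to place the difference.

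Between genes, levels were compared per length as TPM, which divides counts by the length of all annotated exons of a gene and scales every library to the same total. In control vehicle cells Rbpj was highest, with 75.4 to 91.3 TPM, followed by Maml1 with 57.8 to 62.4 TPM. Maml2, at 25.8 to 28.4 TPM, and Hes1, at 20.5 to 30.9 TPM, came next and overlapped. Hey1 followed at 4.66 to 6.05 TPM and Maml3 at 1.30 to 2.07 TPM. Hey2, Heyl and Nrarp were each under 0.39 TPM, and the ranges of Heyl and Nrarp overlapped. In Notch2tm1.1Ecan vehicle cells the ranges of Rbpj (60.2 to 68.6 TPM) and Maml1 (55.2 to 62.7 TPM) overlapped, those of Hes1 (36.0 to 40.4 TPM) and Maml2 (31.7 to 39.7 TPM) overlapped, and Heyl (1.44 to 2.29 TPM) reached the range of Maml3 (1.45 to 2.52 TPM). With TNFα, Hes1 fell below Maml2 without overlap in both genotypes, at 3.24 to 8.73 TPM in control and 4.86 to 8.97 TPM in Notch2tm1.1Ecan cells against 24.5 to 28.3 TPM and 29.7 to 34.5 TPM for Maml2. The ranges of Hes1 and Hey1 overlapped with TNFα in control cells. Rbpj has an annotated exon length of 12849 bases over all its transcripts, and where shorter transcripts are used its TPM understates its level.

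The other genes of the pathway were read by lists. Over all genes tested, 10.5% and 9.94% were called between genotypes with vehicle and TNFα. For TNFα against vehicle, the shares were 44.2% in control and 44.5% in Notch2tm1.1Ecan cells. Of 8 further Notch target genes, 7 were tested with vehicle, and 2 were called higher and 1 lower in Notch2tm1.1Ecan cells. Those with the largest differences were Lfng, which encodes a glycosyltransferase that modifies NOTCH receptors (log2 fold change 0.89, adjusted p = 5.14e-07), and Id3, an inhibitor of basic helix-loop-helix factors (0.33, adjusted p = 0.00405). With TNFα 1 was called higher, Lfng (0.60), and 1 lower, the cyclin gene Ccnd1 (-0.23). TNFα lowered 4 of the 7 in each genotype, with log2 fold changes of -2.27 in control and -3.39 in Notch2tm1.1Ecan cells for Id3 and of -1.61 and -1.89 for Lfng. The medians of this list in the same order of comparisons were 0.04, 0.03, -0.24 and -0.34. Of 6 other genes of the Hes family, Hes6 and Hes7 were tested, and by edgeR no gene was called or had an unadjusted p under 0.05 in the genotype comparisons or with TNFα in Notch2tm1.1Ecan cells. Hes6 was called higher with TNFα in control cells (log2 fold change 0.46, adjusted p = 0.000416). Hes7 stands in both of these lists.

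Among 18 corepressors of RBPJ and HES proteins, edgeR called none between genotypes with vehicle, where 3 had an unadjusted p under 0.05. With TNFα 2 were called higher and 1 lower, the latter being Tle1 (log2 fold change -0.27). With TNFα against vehicle, 7 were called higher and 5 lower in control and 7 higher and 4 lower in Notch2tm1.1Ecan cells. Over all genes tested, 44.2% and 44.5% were called in those comparisons. L3mbtl3, a methyl-lysine reader that binds RBPJ, rose by 1.25 and 1.44 on the log2 scale, Cir1, a corepressor of RBPJ, rose by 0.54 in control cells, and Sin3a, a scaffold of histone deacetylase complexes, rose by 0.65 in Notch2tm1.1Ecan cells. The medians were 0.02 and 0.08 in the genotype comparisons with vehicle and TNFα, and -0.03 and 0.02 for TNFα in control and Notch2tm1.1Ecan cells. Of 14 coactivators and genes of NICD turnover, 1 was called lower with vehicle (Dtx3, -0.26) and 1 higher with TNFα (Numbl, 0.20) in Notch2tm1.1Ecan cells. TNFα raised 5 and lowered 3 in control cells and raised 6 and lowered 3 in Notch2tm1.1Ecan cells. The largest were Dtx4, a Deltex ubiquitin ligase (1.01 and 1.46), and Kat2b, an acetyltransferase (0.86 and 0.92). The medians of that list were -0.0017 to 0.13 over the 4 comparisons.

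Of 21 receptors, ligands and processing enzymes, 19 were tested between genotypes with vehicle, and 3 were called higher and none lower. Among the genes called, Notch3 (log2 fold change 1.37, adjusted p = 1.43e-10) and the ligand Jag1 (0.79, adjusted p = 1.66e-07) had the largest differences. With TNFα 4 of 20 were called higher, led by Notch3 (0.87) and Jag1 (0.63). TNFα against vehicle raised 6 and lowered 2 of 18 in control cells and raised 7 of 21 in Notch2tm1.1Ecan cells. Over all genes 44.2% and 44.5% were called, and the shares of this list were not read as different from those. Among the genes called, the ligand Dll1 (1.68 and 1.71) and Adam17, a sheddase (1.58 and 1.65), had the largest rises. The medians of this list were 0.01 and 0.07 for genotype and 0.04 and 0.06 for TNFα. The called markers of the endothelial list and of the smooth muscle and pericyte list moved with genotype in the same libraries as Notch3 and Jag1. Their part was not tested.

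**Figure D4:**
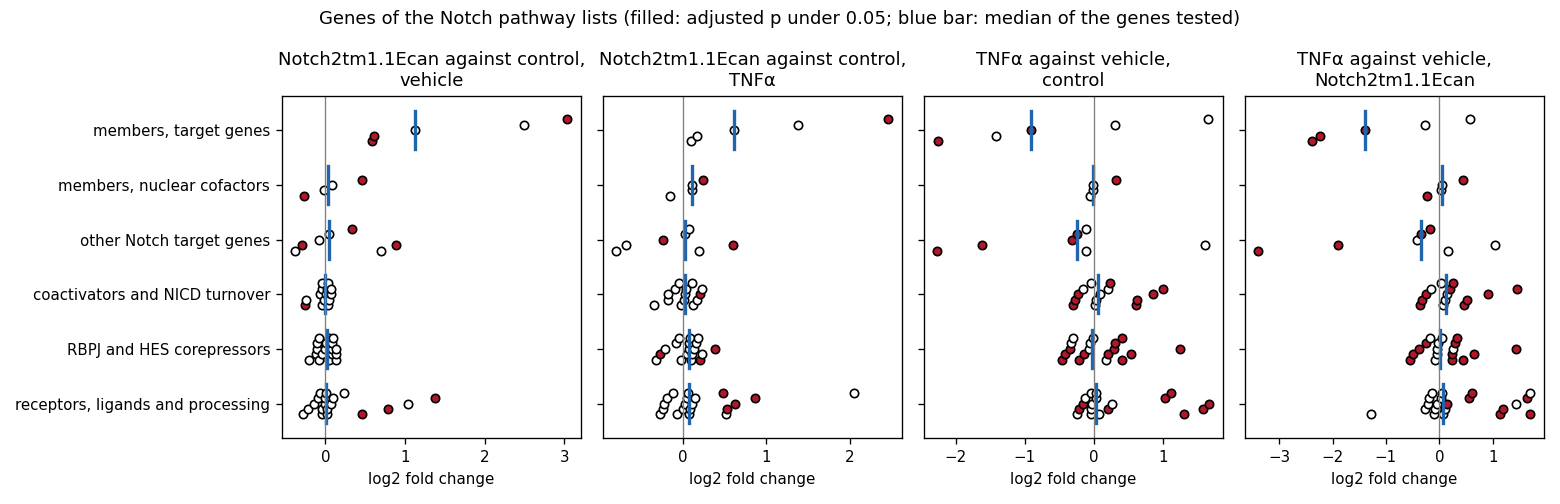
Log2 fold changes (horizontal axis) of the genes of 6 Notch pathway lists in the 4 pairwise comparisons, 1 point per gene tested, filled where the adjusted p was under 0.05, with the median of each list as a blue bar. The target gene members had medians of 1.13 and 0.62 between genotypes and -0.91 and -1.40 with TNFα, while the medians of the cofactors and of the 4 other lists lay between -0.34 and 0.13. The medians of 1.13 and 0.62 are the values of Hey2 and Hes1, neither of them called.

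The genes whose pattern over the 16 libraries was most like that of each member were taken from the Pearson correlation of log2 CPM with 13431 genes of at least 1 CPM on average. These are descriptions, since libraries of a group share their condition. Hes1 was most like Zyx (r = 0.988) and Lmnb1 (r = 0.988), and Hey1 was most like Adcy5 (r = 0.958) and Srrm1 (r = 0.954). Heyl was most like Aldh1a3 (r = 0.952) and Actc1 (r = 0.948), the latter a muscle actin gene. Rbpj was most like Atosa (r = 0.974) and Gprin2 (r = 0.969). Among the MAML genes, Maml2 was most like Top2a (r = 0.935) and Arid5b (r = 0.924), whereas the best matches were weaker for Maml1, with Plxnb2 (r = 0.804) and Tshz3 (r = 0.785), and for Maml3, with Cdc42bpb (r = 0.751). Hey2 and Nrarp averaged less than 1 CPM and were not ranked.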

How the data were processed

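RNA was extracted from cultured chondrocyte-enriched cells, and stranded mRNA libraries were sequenced with paired-end 75 bp reads in 1 pool. The authors deposited raw counts per Ensembl gene. The submitters' processing notes name HISAT2 2.1.0, SAMtools 1.9, HTSeq and GRCm38, whereas the study's methods name HISAT2 2.2.1 and GRCm39. The strand setting of the counting was not given in the sources used here. Rows naming no gene (8.81 to 12.1% of each library) were left out. Identifiers were matched to GENCODE M39, which lacks 665 of 55414 (0.0182% of counts).

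Groups were taken from the sample labels. Each pairwise comparison was fitted to its 8 libraries with edgeR 4.0.16 (TMM, robust quasi-likelihood test, R 4.3.3), keeping genes with at least 10 counts over those libraries, and the interaction was fitted to all 16. Benjamini-Hochberg adjustment covered all genes tested, with calls at 0.05. The script was tested on simulated counts. Intervals of pooled counts were exact and cover counting error only. A count of 3 or fewer was taken as the floor. Likeness used log2(CPM + 0.5). Alternatives were DESeq2 1.42.0, RLE scaling, other filters, a log2 cutoff of 1, a replicate block, 1 surrogate variable (sva 3.50.0), a fit to all 16 libraries, and leaving out libraries.

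The genes named were all 9 members, Notch2, the 2 called genes with the largest change in each pathway list, the 2 genes most like each member, and genes on which a result turns. Icam1, Col2a1, Pdgfrb, Rgs5, Cspg4 and Cd14 were named as such, as were lists' genes given again in another comparison. Of the genes this rule selects, 2 are not reported here. The members and lists were chosen with earlier results of these data known. The libraries held 3439726 to 44237300 counts, which sets the precision of the low members Hey2, Heyl and Nrarp. The replicates are labelled biological, but whether each came from separate mice is not stated, so p-values measure the spread between these cultures.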

Additional observations from a re-analysis of the deposited data

Results flagged for a closer look

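A library far from the other 3 of its group was found in 2 of 36 member and group combinations, and chance flags about 1 in 20 groups. Rbpj was 149.3 CPM in Notch2tm1.1Ecan vehicle replicate 1, below the other 3 libraries of that group at 165.6 to 166.3 CPM. It was 168.3 CPM in Notch2tm1.1Ecan TNFα replicate 4, the shallowest library, below the other 3 at 230.7 to 240.3 CPM.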

How the results depend on the processing

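Over the 9 members and 5 comparisons, 692 of 745 alternative values kept their direction and their side of the threshold, 39 changed sign, 9 lost a call and 5 gained one. The value could not be fitted for Hey2 and Nrarp with edgeR's filterByExpr, which removed them, nor for Heyl with TNFα in control cells. Requiring a log2 fold change of 1 left 1, 1, 1 and 3 members called, of 244, 272, 2279 and 2720 genes, in the genotype comparisons with vehicle and TNFα and the TNFα comparisons in control and Notch2tm1.1Ecan cells, and 10 genes for the interaction. The interaction called 174 genes with DESeq2, 266 with at least 1 count, and 51 to 156 when 1 library at a time was left out, against 101. It called 156 without Notch2tm1.1Ecan vehicle replicate 1, 66 without vehicle replicate 2 and 51 without TNFα replicate 3. In the genotype comparison with TNFα, the members called were 1 to 3 when 1 library at a time was left out, 3 (Heyl, Hes1 and Maml2) without control replicate 4. Same-numbered libraries had correlations of deviations of -0.283 to 0.262, 22 of 24 at or under 0.1, and 1 of 16 libraries was most like its own number. No pairing by number was seen, but these values cannot exclude it. Both control libraries numbered 4 stood apart, and the correlation of their deviations was -0.238. In the genotype comparison with TNFα, the replicate block left only Heyl called, 1 member, with the call of Maml2 lost (adjusted p = 0.0563). It left 5, 3, 5 and 0 members called in the others in the order above. The sign changed only for log2 fold changes whose 95% interval included 0. With 1 library left out, the log2 fold changes between genotypes with vehicle ran from -0.056 to 0.0099 for Maml1 and -0.10 to 0.17 for Maml3. With TNFα they ran from -0.062 to 0.22 for Hey1, -0.24 to 0.98 for Hey2 and -0.050 to 0.25 for Maml3. For TNFα in control cells they ran from -0.21 to 0.56 for Heyl, -0.051 to 0.029 for Maml2 and -0.11 to 0.085 for Maml3, and in Notch2tm1.1Ecan cells from -0.12 to 0.20 for Maml3. For the interaction they ran from -0.17 to 0.47 for Hes1 and -0.11 to 0.20 for Maml3. In control cells Maml2 was 0.0034 and Maml3 0.040 with 1 surrogate variable, and Maml3 was 0.010 with the replicate block and 0.095 without both libraries numbered 4. The interaction of Hes1 was -0.0078 with DESeq2, and that of Maml3 was -0.052 without both libraries numbered 4. The cause of these changes was not tested. Depth limits Hey2 and Nrarp, whose libraries held at most 39 and 16 counts.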
